A study of Mus musculus with 10 samples.

Results

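The genes described here are 49 interferon-stimulated genes, chosen by symbol from a table of read counts for 56893 genes. The table holds poly(A) RNA sequencing of primary lymphocytes, T cells and B cells, of the mouse spleen. In these cells, promoters of Pou2f1, the gene of the transcription factor Oct-1, were targeted by CRISPR interference, in which a guide RNA (sgRNA) brings catalytically dead Cas9 to a promoter to lower its transcription. There are 5 groups: T cells labelled as mock (mock T), T cells that received sgRNA-P1, B cells labelled as mock (mock B), and B cells that received sgRNA-P1 or sgRNA-P2, 1 group each. The P1 and P2 guides are aimed at the Pou2f1 promoters of those names. The sources used here do not give the genotype, strain or age of the mice, the number of animals, the selection of the cells, the content of the mock treatment, or how and for what time dead Cas9 and the guides were present.

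Interferons are secreted when cells sense viruses or other microbes. Type I interferons act through a receptor that activates JAK kinases and the factor ISGF3, which contains STAT2 and IRF9 and binds a DNA element named the interferon-stimulated response element (ISRE). Interferon gamma, made mainly by T cells and natural killer cells, acts through its own receptor and a DNA element named the gamma-activated site (GAS). The genes that these factors switch on code for proteins that detect foreign nucleic acid, block viral replication, attack vacuoles that hold microbes, and damp the response again. Lymphocytes also transcribe many of them without infection, at levels that depend on cell type.

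The deposited table gives 2 columns per group, labelled as replicates. In all 5 groups every gene with reads lay within 1 read of a single fixed proportion between these columns, and the columns differed by less than the sampling noise. They were summed and counted as 1 sample per group, so no single comparison between groups has a replicate check or a p-value. Summed, mock T had 71858511 reads, with 39352816 in sgRNA-P1 T cells, 33842813 in mock B, 49066261 in sgRNA-P1 B cells and 28118839 in sgRNA-P2 B cells. Pou2f1, the targeted gene, stood at 47.8% of its mock level in sgRNA-P1 T cells, 58.2% in sgRNA-P1 B cells and 55.3% in sgRNA-P2 B cells.

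The labelled cell types were set against their markers. Summed over 11 T cell markers, the T libraries held 5034 to 5098 CPM (counts-per-million units, reads scaled to library size) and the B libraries 226 to 234 CPM, with Cd3d and Cd3e at or near 0 in the B libraries. Most of the B sum came from Cd2 (351 against 175 CPM, mock T against mock B) and Lck (799 against 46.2 CPM). Summed over 10 B cell markers, the B libraries held 12769 to 12890 CPM and the T libraries 34.4 to 37.7 CPM. Both Cd4 (654 CPM) and Cd8a (395 CPM) were present in mock T. Because these are bulk libraries, fewer cells of a type and less RNA per cell cannot be told apart.

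Many of the 49 genes carry a match to the ISRE close to a start site given by RefSeq. A script searched windows of 250 bases before to 50 bases after each start, from RefSeq on the build GRCm38.p6, in which 36 of the 49 genes had an entry. The ISRE was searched on both strands as GAAA and GAAA with 2 bases of any kind between them. It was present in 24 of the 36 genes (66.7%), against 3.99% of all 27025 genes in the RefSeq table. The GAS, searched as TTCNNNGAA, was present in 10 of the 36 (27.8%), against 9.55% of all genes. The octamer ATGCAAAT, the DNA element that Oct-1 is known to bind, was present in 0 of the 36, against 1.97% of all genes, and this says only that these letters are absent from these windows. A match is a stretch of letters and not a shown binding site. In 26 of the 45 windows of these genes, the start was found near the beginning of a GENCODE transcript of that gene. The windows of Irgm2, Ifi206 and Ifi203, printed below, are among the others, so their distances to the start are less certain.

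The stretches below run 5′ to 3′ on the strand of the gene, with the ISRE match nearest the start site in capitals, and are shown because they let neighbouring copies be compared. The first 2 belong to genes that are widely used as readouts of the interferon response, and the others to members of gene families that lie side by side. Isg15 has 3 overlapping matches and Gbp3 has 2, of which only the nearest is in capitals.
Ifit1: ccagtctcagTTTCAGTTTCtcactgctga
Isg15: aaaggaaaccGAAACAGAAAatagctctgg
Igtp: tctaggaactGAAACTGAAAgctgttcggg
Irgm2: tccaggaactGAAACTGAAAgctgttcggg
Ifi206: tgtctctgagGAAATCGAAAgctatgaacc
Ifi213: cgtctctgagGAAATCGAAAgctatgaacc
Ifi214: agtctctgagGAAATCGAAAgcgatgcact
Ifi203: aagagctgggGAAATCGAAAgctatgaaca
Trim30a: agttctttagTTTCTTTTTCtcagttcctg
Trim30d: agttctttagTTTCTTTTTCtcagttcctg
Gbp2: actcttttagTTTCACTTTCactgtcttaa
Gbp3: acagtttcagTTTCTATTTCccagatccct
On GRCm38.p6 the Ifit1 stretch lies at chr19:34640794-34640823 on the plus strand and the Isg15 stretch at chr4:156200865-156200894 on the minus strand. Igtp (chr11:58199512-58199541) and Irgm2 (chr11:58214903-58214932) lie on the plus strand. The PYHIN stretches lie on the minus strand at chr1:173491339-173491368 (Ifi206), chr1:173599326-173599355 (Ifi213), chr1:173536017-173536046 (Ifi214) and chr1:173942508-173942537 (Ifi203). Trim30a (chr7:104465210-104465239) and Trim30d (chr7:104507871-104507900) lie on the minus strand and print the same letters. Gbp2 (chr3:142620594-142620623) and Gbp3 (chr3:142559995-142560024) lie on the plus strand.

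Across the 5 libraries, 46 of the 49 genes reached 5 CPM in at least 1 library. The other 3 were Ifit3b (2.16 to 4.56 CPM), Ifi204 (0.296 to 1.19 CPM) and Ifi44 (0.548 to 0.681 CPM). Per unit of exon length, in transcripts-per-million units (TPM), the highest level was that of Ifi27l2a, a small hydrophobic protein of the ISG12 family, with 767 TPM in mock T and 517 TPM in mock B. Ifi44 was the lowest in mock T, with 0.383 TPM. Summed over the 49 genes, the level was 4958 CPM in mock T and 3798 CPM in mock B.

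**Figure D1:**
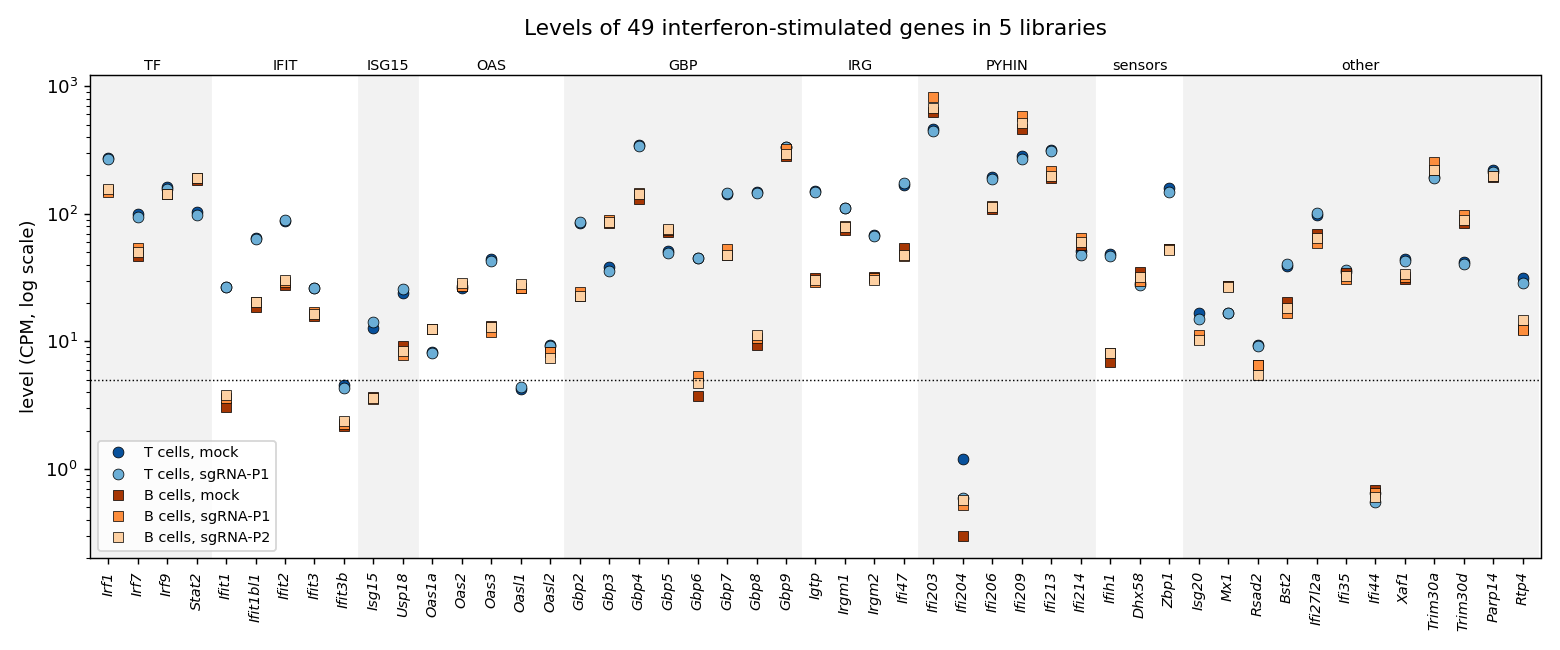
Level of each of the 49 genes in CPM (log axis) in the 5 libraries, grouped by role and without error bars. Circles are T cell libraries, squares are B cell libraries, and the dotted line is 5 CPM. In most genes the circles of both T libraries lie together and apart from the 3 squares, with Oas2 an exception.

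The cell type was the main difference between the libraries in this set. In 33 of the 46 genes (71.7%) both T libraries lay above all 3 B libraries, against 41.8% of all 10965 genes at 5 CPM in some library. In 12 of the 46 (26.1%) all B libraries lay above both T libraries, against 40.9% of all genes. Only Oas2 overlapped. A model of all 5 libraries with a cell type term and a guide term (edgeR's quasi-likelihood test, 2 residual degrees of freedom, adjusted over all 17581 genes fitted) called 32 of the 49 genes higher in T cells, and 12 the other way, at an adjusted p under 0.05. The same term called 32.5% of all genes toward T cells and 31.8% toward B cells. The 5 genes that did not pass were Oas2 (adjusted p 0.712), Oasl2 (0.148), Ifi204 (0.0787), Ifi35 (0.146) and Ifi44 (0.773). The libraries of a cell type differ in guide, so they stand in for replicates in this test, and whether they came from separate animals is not given.

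Between mock T and mock B alone, 46 genes reached 5 CPM in the higher library. Of these, 24 were higher in mock T by 1.5-fold or more and 7 were higher in mock B by as much. Among all 10806 genes compared, 18.4% passed this rule toward T cells and 18.5% toward B cells. The median log2 ratio of T over B was 0.69 for the 46 genes and 0.01 for all genes. Intervals given below in brackets are exact 95% intervals of the log2 ratio and cover counting error only.

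**Figure D2:**
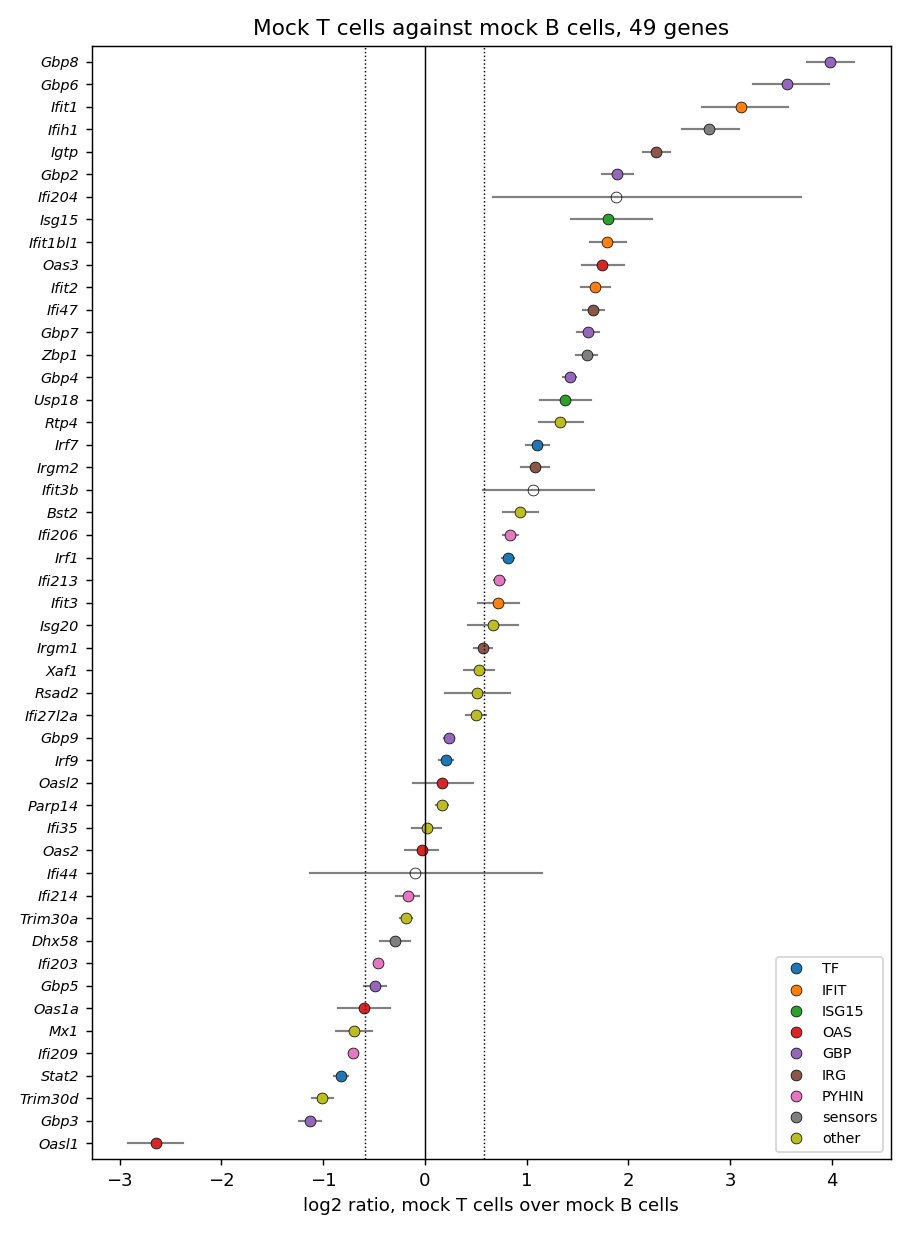
Log2 ratio of mock T over mock B for each of the 49 genes, ordered by the ratio and coloured by role. Grey bars are exact 95% counting intervals, dotted lines mark 1.5-fold, and open circles are genes under 5 CPM in both libraries. Values run from -2.64 for Oasl1 to 3.98 for Gbp8.

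Transcription factors of the response were divided between the cell types. Irf1, which is induced by interferon gamma and acts on many GBP and antigen presentation genes, had 272 CPM in mock T, 271 CPM in sgRNA-P1 T cells, and 155, 147 and 155 CPM in B cells (mock, sgRNA-P1 and sgRNA-P2, the order kept throughout). Irf7, the factor that amplifies type I interferon production, had 99.6 and 94.2 CPM in T cells and 46.3, 53.5 and 50.3 CPM in B cells. Both T libraries lay above every B library, with mock ratios of 1.76-fold for Irf1 and 2.15-fold for Irf7. Stat2, a subunit of ISGF3, lay the other way, with 104 and 97.6 CPM in T cells and 184, 190 and 190 CPM in B cells (log2 -0.83 [-0.90, -0.76]). Its ISGF3 partner Irf9 differed little, with 163 and 157 CPM in T cells and 142, 143 and 142 CPM in B cells, though the cell type term called it (adjusted p 0.00596). The exons of Irf1 overlap the antisense gene Gm17334 (11.9 CPM in mock T), and without a stated strand setting their reads cannot be told apart.

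The IFIT proteins bind viral RNA with foreign ends. All 4 of those at 5 CPM or more were over 1.5-fold higher in T cells, against 18.4% of all genes. Ifit1 had 26.5 and 26.8 CPM in T cells and 3.05, 3.60 and 3.79 CPM in B cells. That was an 8.61-fold difference between the mock libraries (log2 3.11 [2.73, 3.57], adjusted p 1.08e-13), and the groups lay far apart. Ifit2 had 88.3 and 90.2 CPM in T cells and 27.7, 28.9 and 30.3 CPM in B cells. Ifit1bl1 had 64.0 and 63.4 CPM in T cells and 18.5, 20.2 and 20.3 CPM in B cells. The T values of both genes lay over 3-fold above B in the mock libraries. Ifit3 was closer, with 26.2 and 26.3 CPM in T cells and 15.9, 17.1 and 16.5 CPM in B cells. Ifit3 and Ifit3b are uncertain, because 97.4% of the Ifit3 transcript is shared with Ifit3b at 97% identity or more.

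Isg15, a ubiquitin-like protein that is joined to other proteins, and Usp18, the protease that removes it and also damps interferon receptor signalling, followed the IFIT genes. Isg15 had 12.8 and 14.3 CPM in T cells and 3.64, 3.54 and 3.57 CPM in B cells. Usp18 had 24.0 and 25.8 CPM in T cells and 9.24, 7.83 and 8.36 CPM in B cells. Neither gene's groups overlapped, and the log2 ratios were 1.80 [1.43, 2.23] and 1.37 [1.13, 1.63].

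The OAS family, whose enzymes make the second messenger that activates RNase L and whose member OASL1 lacks that activity, had no common direction. Oasl1, which is known to restrain translation of Irf7, had 4.23 and 4.41 CPM in T cells and 26.4, 26.4 and 28.2 CPM in B cells. It was 6.24-fold higher in mock B (log2 -2.64 [-2.92, -2.38], adjusted p 2.05e-13), the lowest T over B ratio of the 49 genes. Oas3 lay the other way, with 44.2 and 42.8 CPM in T cells and 13.2, 11.9 and 12.97 CPM in B cells (log2 1.74 [1.54, 1.96]). Oas2 had 26.4 and 27.1 CPM in T cells and 27.0, 27.1 and 28.4 CPM in B cells, so its groups overlapped. Oasl2 had 9.31 and 9.21 CPM in T cells and 8.27, 8.24 and 7.47 CPM in B cells and did not pass the test. Oas1a had 8.30 and 8.16 CPM in T cells and 12.6, 12.4 and 12.6 CPM in B cells, close to the 1.5-fold line (log2 -0.60 [-0.86, -0.34]). Oas1a is uncertain, because 98.7% of its transcript is shared with Oas1g, which had at most 0.2498 CPM in any library.

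Guanylate-binding proteins (GBPs) are large GTPases that coat and break vacuoles holding bacteria or parasites, and they showed the widest spread. Gbp8 had 148 and 147 CPM in T cells and 9.36, 10.7 and 11.1 CPM in B cells. This 15.7-fold difference was the greatest of the 49 genes (log2 3.98 [3.75, 4.22], adjusted p 2.73e-18). Gbp6 had 44.8 and 44.7 CPM in T cells and 3.76, 5.37 and 4.72 CPM in B cells, an 11.8-fold difference between the mock libraries. It is uncertain, because 61.6% of its transcript is shared with the predicted gene Gm43302, which had no read in either mock library. Their neighbour Gbp4 had 348 and 338 CPM in T cells and 130, 146 and 142 CPM in B cells (log2 1.42 [1.36, 1.49]). Gbp9, in the same cluster on chromosome 5, had 334 and 331 CPM in T cells and 283, 323 and 293 CPM in B cells, a log2 ratio of only 0.24 [0.19, 0.29]. Differences among these 4 genes thus ranged from 1.18-fold to 15.7-fold. Gbp4, Gbp8 and Gbp9 share 60 or 61 exon bases with each other in the deposited annotation, under 2% of each gene's exons.

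The 4 GBPs of the set on chromosome 3, taken without any other gene of that cluster, alternated in direction along the chromosome. In the order of their starts in the deposited table, where mm39 is the mouse build named in the submitters' notes (Gbp5 at 142199739, Gbp7 at 142236103, Gbp3 at 142265787 and Gbp2 at 142326363, all on the plus strand), B cells were higher at the first and the third and T cells at the others. Gbp5 had 51.1 and 49.7 CPM in T cells and 71.7, 74.7 and 76.4 CPM in B cells. Gbp7 had 144 and 147 CPM in T cells and 47.5, 53.2 and 47.5 CPM in B cells. Gbp3 had 38.6 and 35.3 CPM in T cells and 84.3, 89.7 and 86.6 CPM in B cells. Gbp2 had 84.5 and 85.7 CPM in T cells and 22.8, 24.2 and 22.9 CPM in B cells. None of the 4 overlapped between cell types, and the log2 ratios were -0.49 [-0.59, -0.38], 1.60 [1.49, 1.71], -1.13 [-1.24, -1.02] and 1.89 [1.74, 2.05] in that order. All 4 carry an ISRE match, among them the Gbp2 and Gbp3 stretches printed above. Gbp7 shares 11.3% of its transcript with the predicted gene Gm43802.

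Immunity-related GTPases, which act on vacuoles beside the GBPs, were all higher in T cells. Of all 10806 genes compared between the mock libraries, 5493 were higher in T cells. Igtp (Irgm3) had 152 and 148 CPM in T cells and 31.4, 29.5 and 30.3 CPM in B cells, a 4.84-fold difference. Ifi47 had 169 and 173 CPM in T cells and 53.7, 46.7 and 47.2 CPM in B cells. Irgm2 had 67.7 and 67.1 CPM in T cells and 31.9, 31.4 and 30.01 CPM in B cells. The difference for Irgm1, a regulator of the family, was smallest, with 111 and 110 CPM in T cells and 74.9, 79.9 and 78.4 CPM in B cells (1.48-fold). Igtp and Irgm2 share exon bases in the deposited annotation, and 8.16% of the Igtp transcript matches Irgm2, so a part of their reads cannot be assigned to either with certainty.

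The PYHIN genes of chromosome 1, whose proteins bind DNA in the nucleus or cytosol, gave the highest summed level of any role group (1307 CPM in mock T and 1453 CPM in mock B), and their members differed in direction. Ifi203 had 459 and 446 CPM in T cells and 631, 825 and 669 CPM in B cells. Ifi209 had 286 and 270 CPM in T cells and 466, 585 and 511 CPM in B cells. Both were higher in every B library, with log2 ratios of -0.46 [-0.49, -0.42] and -0.70 [-0.75, -0.66]. Ifi213 had 316 and 312 CPM in T cells and 190, 218 and 196 CPM in B cells. Ifi206 had 194 and 187 CPM in T cells and 108, 115 and 114 CPM in B cells. These were higher in every T library, with log2 ratios of 0.73 [0.67, 0.79] and 0.84 [0.76, 0.91]. Ifi214 had 50.7 and 47.7 CPM in T cells and 57.0, 64.5 and 59.8 CPM in B cells. The 4 PYHIN stretches printed above share the same capitals while their T over B ratios have both signs. PYHIN values are uncertain: the part of the transcript shared with another gene was 17.9% for Ifi203 (Ifi203-ps), 19.95% for Ifi206 (Gm18752) and 23.0% for Ifi209 (Ifi214).

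Of the sensors, Ifih1 (MDA5, which detects long double-stranded RNA) had 48.0 and 46.4 CPM in T cells and 6.90, 8.14 and 8.14 CPM in B cells. Zbp1, a sensor of Z-form nucleic acid that can start necroptosis, had 158 and 147 CPM in T cells and 52.6, 52.8 and 51.7 CPM in B cells. Both were higher in T cells, 6.92-fold and 3.01-fold. Dhx58 (LGP2, a helper of MDA5) lay the other way, with 28.7 and 27.6 CPM in T cells and 35.2, 29.7 and 31.8 CPM in B cells, and passed with an adjusted p of 0.0177, the largest of the genes that passed.

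Among the other effectors, 3 were over 1.5-fold higher in T cells. Rtp4, a chaperone-like protein with antiviral activity, had 31.6 and 28.4 CPM in T cells and 12.6, 12.2 and 14.7 CPM in B cells. Bst2 (tetherin, which holds budding virions on the cell) had 38.7 and 40.4 CPM in T cells and 20.3, 16.8 and 18.3 CPM in B cells. Isg20, an exonuclease, had 16.6 and 14.9 CPM in T cells and 10.4, 11.2 and 10.2 CPM in B cells. In none of these did the groups overlap, and the log2 ratios were 1.33, 0.93 and 0.66. Rtp4 overlaps the predicted gene Gm45338.

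Trim30d and Mx1 were over 1.5-fold higher in B cells. Trim30d had 42.2 and 40.6 CPM in T cells and 85.1, 98.1 and 89.5 CPM in B cells (log2 -1.01 [-1.11, -0.90]). Its neighbour Trim30a, a regulator of NF-kappa-B signalling, had 193 and 192 CPM in T cells and 219, 255 and 222 CPM in B cells (log2 -0.19 [-0.24, -0.13]). The printed stretches of these neighbours are identical, and their ratios differed. Mx1, a dynamin-like GTPase that blocks influenza viruses and is defective in many laboratory mouse strains, had 16.7 and 16.6 CPM in T cells and 27.2, 27.4 and 26.8 CPM in B cells.

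The remaining 5 genes at 5 CPM or more lay within 1.5-fold. Ifi27l2a had 98.3 and 101 CPM in T cells and 69.5, 58.5 and 64.3 CPM in B cells. With the length and GC trend over all genes subtracted, its log2 ratio went from 0.50 to 1.77, past the line, and that of Gbp5 went from -0.49 to -0.60, just past it. Xaf1, a pro-apoptotic protein, had 44.4 and 42.4 CPM in T cells and 30.8, 31.7 and 33.6 CPM in B cells. Rsad2 (viperin, which makes a chain-terminating nucleotide) had 9.29 and 9.28 CPM in T cells and 6.52, 6.54 and 5.47 CPM in B cells. These were called higher in T cells by the cell type term. Parp14, an ADP-ribosyltransferase, had 219 and 214 CPM in T cells and 195, 197 and 196 CPM in B cells and was also called (adjusted p 0.0138). Ifi35 had 34.9 and 36.3 CPM in T cells and 34.5, 30.6 and 32.5 CPM in B cells and was not called. Its exons overlap the antisense gene Gm11626, which had 0.292 CPM in mock T.

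ISRE matches were present among genes of either direction. Of the 24 genes over 1.5-fold higher in mock T, 18 had a RefSeq window and 13 of these held a match. Of the 7 higher in mock B, 6 had a window and 4 held a match (Stat2, Oas1a, Gbp3 and Trim30d). Of the 15 within 1.5-fold, 10 had a window and 6 held a match. A GAS match was found in 7 of the 18, 1 of the 6 and 2 of the 10. No test was made on these counts.

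Other genes of the pathway were taken from lists chosen by their known roles, and their counts past 1.5-fold stand beside 18.4% of all genes toward T cells and 18.5% toward B cells. Of 11 interferon genes, 7 had no read in any library, and Ifng alone reached 5 CPM, with 7.21 and 6.60 CPM in T cells and 0.593, 0.333 and 0.214 CPM in B cells (log2 3.54 [2.70, 4.68]). Of 6 receptor genes, 5 reached 5 CPM, 1 of them over 1.5-fold higher in T cells (Ifngr1, 143 against 89.4 CPM in the mock libraries) and 1 higher in B cells (Il10rb, 4.87 against 9.75 CPM). Of 9 genes analysed here for receptor kinases and negative regulators, 3 were over 1.5-fold higher on the T side and 1 on the B side. The 3 included Socs1, an inhibitor of JAK kinases (32.9 against 4.12 CPM), and Jak1 (1256 against 739 CPM), while the phosphatase gene Ptpn6 was higher in B cells (216 against 828 CPM).

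Other IRF factors include those that shape B cell and myeloid identity. Of 5 such factors analysed here, 4 were over 1.5-fold higher in mock B and the other lay within 1.5-fold. Irf8 had 14.3 against 532 CPM, Irf5 5.68 against 237 CPM and Irf4 35.3 against 430 CPM (mock T against mock B). Of 12 genes for nucleic acid sensing, 3 were over 1.5-fold higher in mock B and 2 in mock T, against 18.5% and 18.4% of all genes. Tlr9, the endosomal receptor for unmethylated DNA, had 0.318 against 112 CPM, and the kinase gene Ikbke had 482 against 25.0 CPM. Among 63 further interferon-stimulated genes, 51 reached 5 CPM, 18 of them over 1.5-fold higher on the T side and 12 on the B side, against the same 18.4% and 18.5% of all genes. Their median log2 ratio was 0.28, between those of the 49-gene set and of all genes. Ms4a4b (695 against 2.19 CPM) and Slfn1 (193 against 0.770 CPM) had the largest ratios in favour of T cells.

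**Figure D3:**
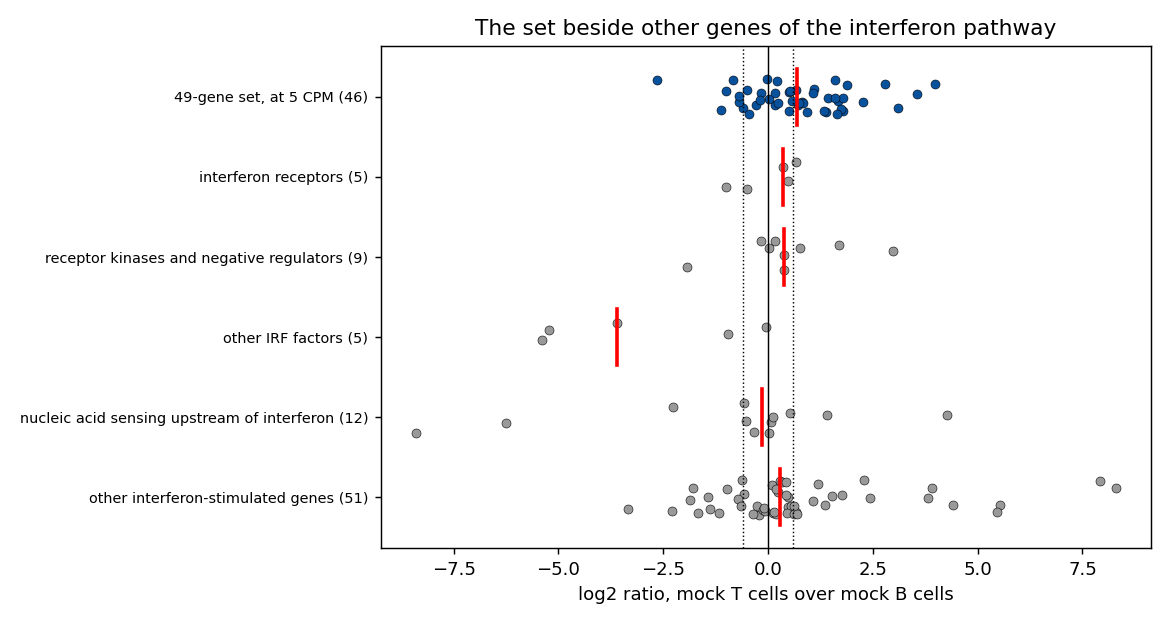
Log2 ratio of mock T over mock B for genes at 5 CPM or more in the 49-gene set and in 5 pathway lists, each point 1 gene and the number of genes in brackets. Red lines are medians, dotted lines mark 1.5-fold, vertical jitter has no meaning, and there are no error bars. The median is 0.69 for the 49-gene set and 0.28 for the further interferon-stimulated genes.

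Markers of other cells were measured beside this comparison. A list of 7 natural killer cell genes summed to 111 CPM in both T libraries and to 6.78 to 7.49 CPM in the B libraries. Most of the T sum came from Nkg7 (62.7 CPM in mock T) and Prf1 (40.1 CPM), which cytotoxic T cells also express. The others were also higher in mock T than in mock B, with Klrb1c at 3.12 against 0.385 CPM, Klre1 at 2.82 against 0 CPM, Gzma at 2.02 against 0.148 CPM, Ncr1 at 0.221 against 0.0889 CPM and Klra8 at 0.0967 against 0 CPM. A list of 11 monocyte and macrophage genes summed to 8.67 to 9.18 CPM in T cells and to 17.5 to 20.1 CPM in B cells, with Fcgr1 at 0 in 4 of the 5 libraries. The largest parts of the mock B sum were Cd68 (6.77 against 7.17 CPM, mock T against mock B), Adgre1 (0.0414 against 5.36 CPM) and Lyz2 (0.621 against 2.13 CPM). A list of 8 plasmacytoid dendritic cell genes summed to 187 CPM in mock T and 286 CPM in mock B. Of these, Siglech, a defining gene, was at most 0.229 CPM in any library. Tcf4 (4.76 against 192 CPM, mock T against mock B) was higher in B cells, and Ccr9 (44.7 against 2.64 CPM), Pacsin1 (86.0 against 65.4 CPM), Lair1 (11.7 against 4.83 CPM) and Bst2, which is among the 49 genes, were higher in T cells. The part of natural killer cells, macrophages and plasmacytoid dendritic cells in the T over B ratios was not tested.

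In T cells with sgRNA-P1, the 45 genes at 5 CPM or more stayed close to mock. Of these, none was 1.5-fold higher or lower, against 0.06% and 0.05% of all 10001 genes. The log2 fold changes ran from -0.15 to 0.16 with a median of -0.01 (all genes -0.02), and 42 of the 45 (93.3%) lay within 1.1-fold, against 86.7% of all genes. The highest were Isg15 (12.8 and 14.3 CPM in mock and guide libraries, 0.16 [-0.05, 0.38]), Usp18 (0.10 [-0.06, 0.26]) and Bst2 (0.06 [-0.07, 0.19]). The lowest were Isg20 (-0.15 [-0.36, 0.05]), Rtp4 (-0.15 [-0.30, -0.01]) and Gbp3 (-0.13 [-0.26, 0.00]). The counting interval excluded 0 on the lower side in 6 genes and on the higher side in none. The share of all genes with such intervals was not computed, and 6006 of all 10001 genes lay below mock. Of the 6, Gbp4 and Ifi203 had upper limits nearest to 0, at -0.001 and -0.004. Below 5 CPM, Ifi204 had 1.19 and 0.597 CPM in mock and guide libraries (-0.95 [-2.05, -0.04]). Zbp1 was one of the 6, with 158 and 147 CPM in mock and guide libraries (-0.10 [-0.17, -0.04]).

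In B cells with sgRNA-P1, again none of the 44 genes at 5 CPM or more was 1.5-fold higher or lower, against 0.477% and 0.258% of all 10067 genes. The spread was wider than in T cells, from -0.27 to 0.51, and 24 of 44 (54.5%) lay within 1.1-fold, against 65.1% of all genes. The median was 0.05 (all genes -0.01), and counting intervals excluded 0 in 12 genes on the higher and 5 on the lower side. How often such intervals exclude 0 over all genes was not computed, so these counts have no background beside them. Gbp6 was highest, with 3.76 and 5.37 CPM in mock and guide libraries (0.51 [0.08, 0.98]), from only 127 reads in mock. It reached 5 CPM in the guide library alone, so it passed the filter only through the library in which it was higher. The top of the range, and its place among the 8 GBPs below, rest on that. Ifi203 (631 and 825 CPM, 0.39 [0.35, 0.42]) and Ifi209 (466 and 585 CPM, 0.33 [0.29, 0.37]) came next. At the other end were Bst2 (20.3 and 16.8 CPM, -0.27 [-0.48, -0.06]), Ifi27l2a (69.5 and 58.5 CPM, -0.25 [-0.36, -0.13]) and Dhx58 (35.2 and 29.7 CPM, -0.24 [-0.40, -0.08]). By role, all 8 GBPs were above their mock level, by 0.06 to 0.51, and so were all 5 PYHIN genes, by 0.09 to 0.39, against 4866 of all 10067 genes. The intervals of Gbp2, Gbp3, Gbp5 and Gbp8 included 0. Of the immunity-related GTPases 3 of 4 were below, and Ifi47 had the lowest value of them (-0.20 [-0.33, -0.07]).

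In B cells with sgRNA-P2, none of 43 genes was 1.5-fold higher or lower, against 0.129% and 0.139% of all 10071 genes. Log2 fold changes ran from -0.25 to 0.25 with a median of 0.04 (all genes 0.00), and 34 of 43 (79.1%) lay within 1.1-fold, against 79.9% of all genes. The highest were Gbp8 (0.25 [-0.08, 0.58]), Ifih1 (0.24 [-0.14, 0.63]) and Rtp4 (0.23 [-0.06, 0.51]). The lowest were Rsad2 (-0.25 [-0.70, 0.17]), Ifi47 (-0.18 [-0.33, -0.04]) and Bst2 (-0.15 [-0.39, 0.08]). Most of these intervals include 0, so such differences were not detectable at this depth. Counting intervals lay above 0 for Gbp4 (0.13), Ifi203 (0.08) and Ifi209 (0.13), and below 0 for Ifi47 alone. Here too the share over all genes was not computed.

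Both B cell guides were set against the same mock library, so a deviation of that library enters both. The direct comparison of sgRNA-P1 with sgRNA-P2 does not use it. There, none of 44 genes was 1.5-fold higher or lower, against 0.278% and 0.119% of all 10068 genes, and the median was 0.01. Ifi203 was highest with sgRNA-P1 (825 against 669 CPM, 0.30 [0.27, 0.34]), followed by Rsad2 (0.25 [-0.14, 0.68]) and Trim30a (0.21 [0.14, 0.27]). Rtp4 was lowest (12.2 against 14.7 CPM, -0.27 [-0.53, -0.01]), followed by Ifi27l2a (-0.14 [-0.26, -0.01]) and Oas3 (-0.12 [-0.39, 0.16]). All 5 PYHIN genes had positive values, from 0.02 to 0.30. Here too the values moved with GC content (Spearman's rho -0.62 over the 44 genes and -0.45 over all genes). After the length and GC trend was subtracted, Ifi203 had 0.16, and Ifi206 (-0.01) and Ifi214 (-0.04) had changed sign.

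**Figure D4:**
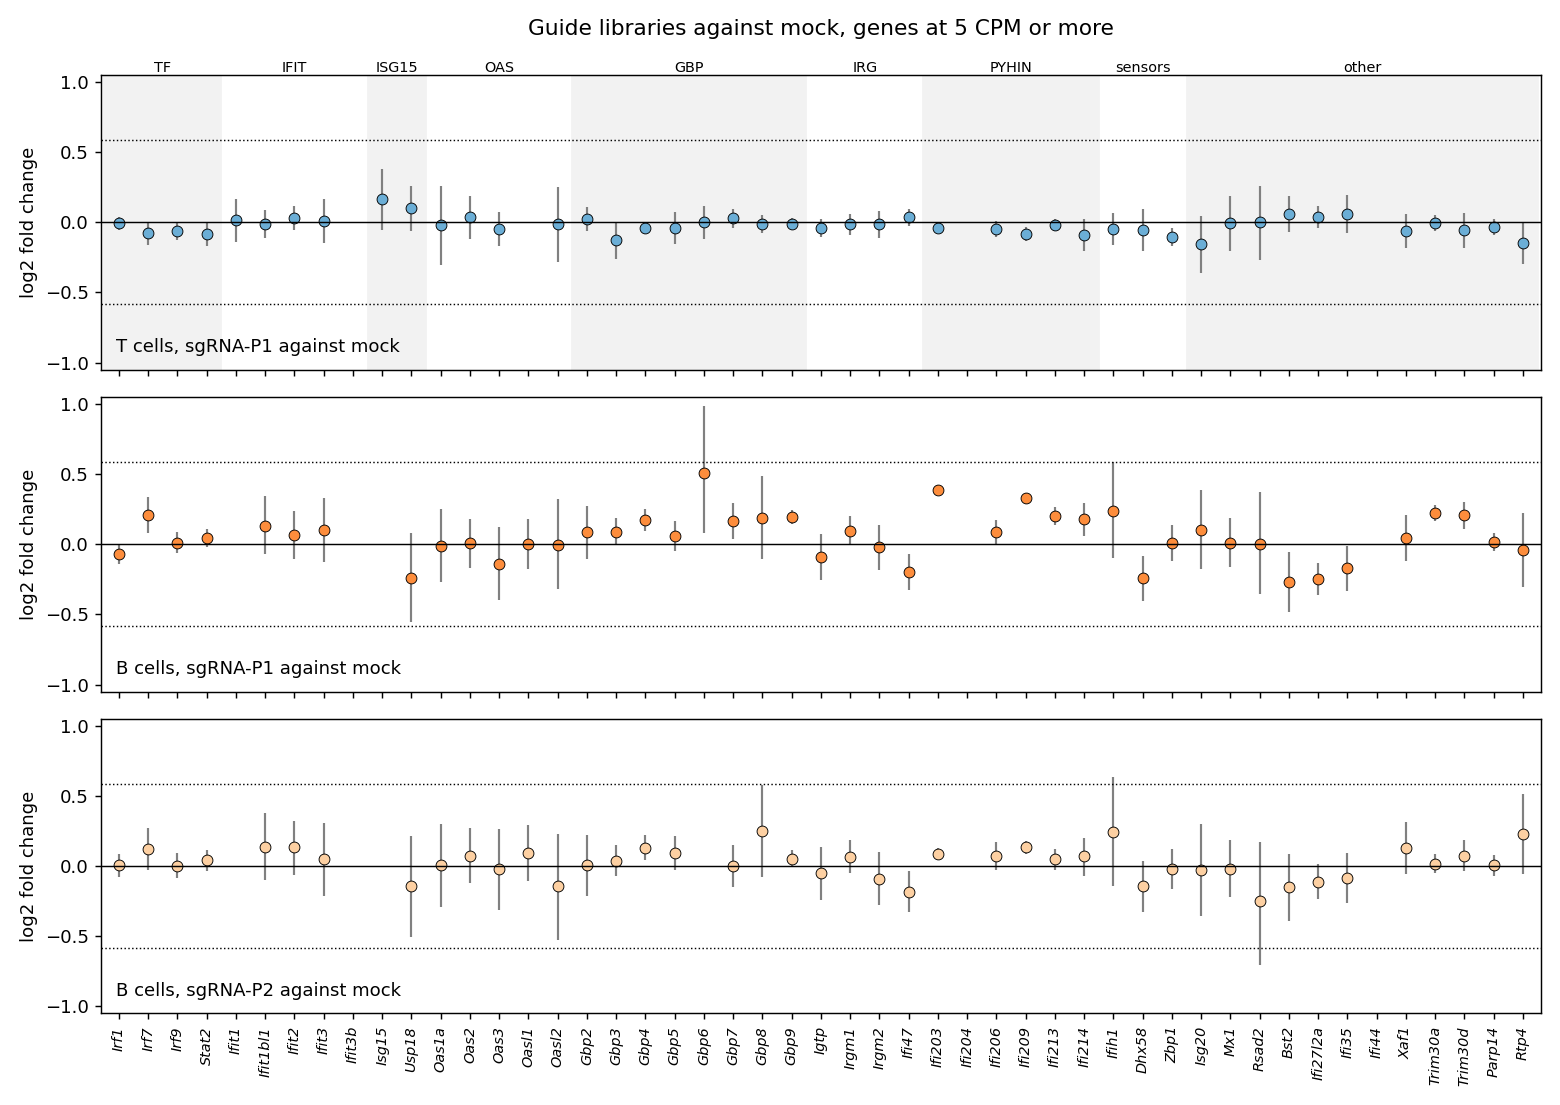
Log2 fold change of each guide library over the mock library of its cell type, for genes at 5 CPM or more, in the order of the role groups. Grey bars are exact 95% counting intervals and dotted lines mark 1.5-fold. No point lies outside the dotted lines, and the points of T cells lie nearest to 0.

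The guide term of the model over all 5 libraries called none of the 49 genes (smallest adjusted p 0.9997 in edgeR's quasi-likelihood test), against 0.00569% of all genes called higher and 0.00569% called lower. The genes called were Malat1 and Pou2f1 itself. At an unadjusted p under 0.05, 0 of the 49 genes passed in edgeR and 0 in DESeq2, while 413 of all genes (2.35%) passed in edgeR. This term assumes a common effect of both guides in both cell types. No gene of the 6 pathway lists at 5 CPM or more was past 1.5-fold in any guide comparison. Under that level some were, such as Slfn1 with sgRNA-P1 in B cells (log2 1.63, from 26 reads in mock).

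In B cells with sgRNA-P1, the fold changes moved with the base composition of the transcripts. Over the 44 genes, Spearman's rho between log2 fold change and GC content was -0.71, and over 9708 genes at 5 CPM or more with a GC value it was -0.50. These are descriptions across genes of the same libraries, and genes are not independent replicates. With sgRNA-P2 rho was -0.41 over 43 genes (all genes -0.17), and in T cells with sgRNA-P1 it was 0.04 over 45 genes (all genes -0.23). The transcripts of Ifi203 (38.4%) and Ifi209 (39.3%) are among the poorest of the 49 genes in GC, and those of Bst2 (55.3%) and Dhx58 (53.9%) are among the richest. Other GC-rich genes lay on either side of mock. Ifi35 (54.1%) was at -0.17 [-0.33, -0.01] and Oas3 (54.6%) at -0.14 [-0.40, 0.12]. Irf7 (55.4%) was at 0.21 [0.08, 0.34], Isg20 (57.4%, the richest) at 0.10 and Oasl1 (56.3%) at -0.001. With the trend subtracted, Irf7 was at 0.29, Isg20 at 0.24, Oasl1 at 0.11, Ifi35 at -0.05 and Oas3 at -0.10. After the length and GC trend over all genes was subtracted, 35 of the 44 genes lay within 1.1-fold (24 before). The range narrowed to -0.21 to 0.39, with Gbp6 still the highest. The value of Ifi203 became 0.21 and that of Ifi209 became 0.17. Of the 5 PYHIN values, that of Ifi214 changed sign, to -0.01.

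**Figure D5:**
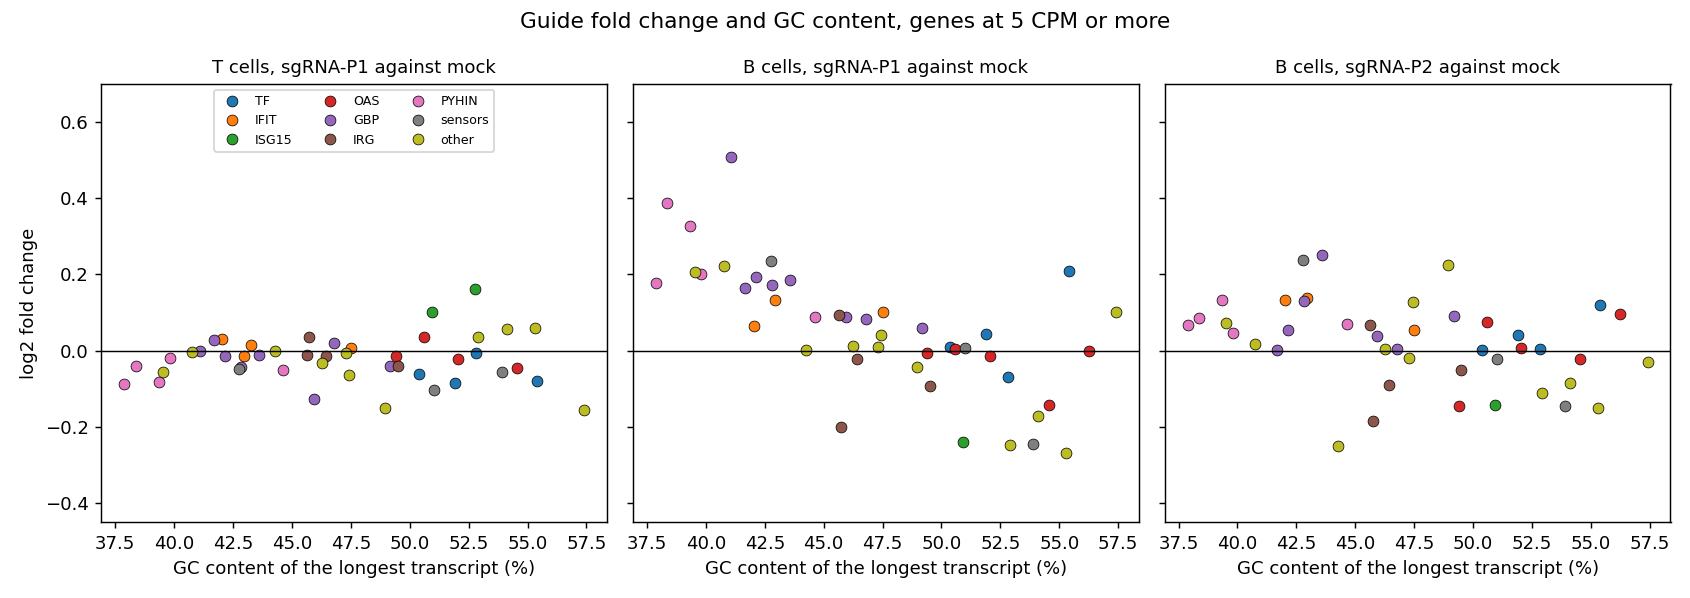
Log2 fold change over mock against the GC content of the longest transcript (percent), for genes at 5 CPM or more in the 3 guide libraries, coloured by role and without error bars. In B cells with sgRNA-P1 the points fall from upper left to lower right (rho -0.71), and in T cells they do not (rho 0.04).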

How the data were processed

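The deposited file holds whole-number read counts per gene, which the authors made with featureCounts after HISAT2 alignment, per the submitters' processing notes, where the builds hg38 and mm39 are named. The sources used here give no versions, annotation release, strand setting or rule for read pairs and multi-mapping reads, so genes with copies or overlapping partners are given as uncertain. The deposited Length column (other) gave exon length for TPM.

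The 2 columns of each group were summed. Libraries were scaled by TMM (edgeR 4.0.16, R 4.3.3) and given as CPM. Log2 ratios used a prior of 1 read, genes at 5 CPM or more in the higher library and a 1.5-fold size rule. Intervals are exact conditional 95% intervals on the reads divided by 2, since both reads of a pair appear to be counted (71.96% to 74.8% of low counts are even). PCR copies make them counting error only. edgeR's quasi-likelihood test was fitted to the 5 libraries with cell type and guide terms, with Benjamini-Hochberg adjustment over all genes, and DESeq2 1.42.0 was an alternative. The planned test on columns as replicates was not used, because the columns came from 1 divided library. Scripts were tested on simulated data.

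Copies were searched with blastn 2.17.0 in GENCODE M21 transcripts (97% identity, 100 bases or more). There 20 of the 49 genes shared 100 bases or more with another gene, and 18 overlapped another gene in the deposited annotation. GC content came from the same transcripts. Promoter windows came from RefSeq, GRCm38.p6. Genes were named by role group, with every gene at 5 CPM or more given in all libraries, and up to 3 per direction in each guide comparison. The genes and lists were chosen with earlier results of these data known. Of the pathway lists, 2 genes are not reported here, and the counts and medians of those lists leave them out.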

Additional observations from a re-analysis of the deposited data

Results flagged for a closer look

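The log2 fold change with sgRNA-P1 had opposite signs in T and B cells, with counting intervals that excluded 0 in both, for 3 genes. How many of all genes show such a pattern was not computed. In T cells the intervals of Gbp4 and Ifi203 ended close to 0, at -0.001 and -0.004. The median of all genes there was -0.019, and -0.006 with DESeq2 size factors, and the intervals were not computed with other scalings. In log2 units, the T cell and B cell values were -0.04 and 0.17 for Gbp4, -0.04 and 0.39 for Ifi203, and -0.08 and 0.33 for Ifi209. With 1 library per group the difference between the cell types was not tested. All 3 transcripts are poor in GC, and the part of base composition in the difference was not tested beyond the subtraction of the trend, after which the B cell values were 0.09, 0.21 and 0.17.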

How the results depend on the processing

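No paired analysis was possible because the 2 columns of each group came from 1 divided library, so fits of the columns as libraries, with or without a replicate block, were not run. Protein identity between paralogs was also not run, for want of protein sequences. The count of genes at 1.5-fold or more in T cells with sgRNA-P1 became 1 with a 1 CPM filter and 1 with no filter beyond 1 read. In B cells it became 1 with sgRNA-P1 and 1 with sgRNA-P2 with no filter beyond 1 read. The added gene was Ifi204 in each of these. A size rule looser than 1.5-fold gave 3 genes higher and 0 lower with sgRNA-P1 in B cells (Gbp6, Ifi203 and Ifi209). By that rule, 312 of all 10067 genes were higher there and 291 were lower. Gbp6 passed the 5 CPM filter only through the guide library, in which it was higher. Between mock T and mock B, Oas1a fell below the 1.5-fold line with scaling by total reads only (-0.58) and with the length and GC trend subtracted (-0.37), and Ifi209 did with the trend subtracted (-0.52). The cause was not tested. With each of the 5 libraries left out in turn, the cell type term called 40 to 45 of the 49 genes (44 with all libraries) and the guide term 0. DESeq2 called 43 and 0. Of the genes within 1.5-fold between mock T and mock B, Ifi27l2a (1.77) and Gbp5 (-0.60) passed the line with the trend subtracted, so the counts there became 25 and 6. Genes of few reads, such as Ifi204, Ifi44 and Gbp6 in B cells, are limited by depth.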
